A study of Rattus norvegicus with 12 samples.

Results

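p53 is a transcription factor that is switched on by DNA damage and other stress, and its target genes stop the cell cycle, start repair or lead to cell death. One of its targets, Mdm2, encodes the ubiquitin ligase that marks p53 for destruction, so that p53 limits itself. In cultured fibroblasts several of the same targets are also known to answer to growth factors or nutrients. The genes described here were 9 such targets, namely Mdm2, Ccng1, Gadd45a, Btg2, Phlda3, Sesn1, Zmat3, Plk2 and Plk3. They were taken from a list of names, and every probe set (a group of short probes for 1 transcript) that the platform annotation gives to 1 of these genes alone was used. Of the 9 genes, 8 had such a probe set. These 8 genes had 11 of the 31042 probe sets tested. Mdm2 had 3 probe sets, Sesn1 had 2 and the other 6 genes had 1 each. The level of Btg2 was not analysed here.

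The study asked which genes change when normal fibroblasts become tumour-forming cells. Tumor cells were grown in culture from explants of subcutaneous tumours, which F111 cells kept in suspension for 16 h had formed in nude mice, and the labels place the tumours 3 months after injection. A16 cells were F111 cells, a fibroblast line of the Fischer rat that the paper calls normal, and had adhered to plastic for 16 h. Both kinds of cell therefore derive from 1 line, and neither carries an added gene. The paper also reports aneuploidy in F111 cells, and proposes that A16 cultures could hold some partially transformed cells. The labels give the same serum for both groups whereas the methods describe more serum for the explants, and mouse cells of the host could remain in an explant culture. RNA of each group was run on 3 Affymetrix rat arrays. One of these, technical replicate 2, was averaged with replicate 1, giving n = 2 replicates per group. Replicates 1 and 2 are called biological in the labels, which do not name separate cultures or animals for them, and a p-value here covers only how far these samples scatter, which may be technical.

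All values are log2 intensity after RMA, a method that combines the probes of a probe set on a scale shared by the arrays. Differences are Tumor minus A16 with their standard error (SE). A probe set was called when its adjusted p in limma was under 0.05 and its fold at least 2. The correlation over probe sets lay between 0.991 and 0.997 within a group and between 0.933 and 0.949 across groups. Control probe sets separated the groups as well. The poly-A spikes, meant to be added before labelling, averaged 4.83 in Tumor, below the array median, and 7.85 in A16. The methods do not say whether such spikes were added to each group. The 3′ excess of beta-actin averaged 2.32 in Tumor and 0.68 in A16. The 3′ excess also averaged 2.02 in Tumor and 1.06 in A16 for hexokinase, against 0.28 in Tumor and -0.03 in A16 for Gapdh. RNA labelling and group cannot be told apart, and the part of RNA quality in the differences was not tested.

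Promoters of 3 genes are shown because Ccng1 was higher in Tumor, while Gadd45a and 2 of the 3 probe sets of Mdm2 were lower. The sequences are from RefSeq on the GRCr8 assembly, which is not the assembly of the array design, and run from 250 bases before to 50 bases after the transcription start that the promoter table uses. That start is the outer end of the gene for Ccng1 and Gadd45a, but lies 966 bases inside the annotated gene for Mdm2. Capitals mark a match to the p53 half-site consensus, which reads the same on both strands. The windows are Ccng1 at chr10:25684827-25685126 (minus strand), Gadd45a at chr4:97486750-97487049 (minus strand) and Mdm2 at chr7:55200742-55201041 (minus strand, no match).
Ccng1: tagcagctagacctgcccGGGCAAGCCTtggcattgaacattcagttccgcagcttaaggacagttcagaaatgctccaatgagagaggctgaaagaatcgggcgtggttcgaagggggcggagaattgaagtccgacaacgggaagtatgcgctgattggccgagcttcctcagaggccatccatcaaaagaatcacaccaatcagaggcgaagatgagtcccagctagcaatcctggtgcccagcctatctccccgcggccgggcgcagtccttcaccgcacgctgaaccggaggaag
Gadd45a: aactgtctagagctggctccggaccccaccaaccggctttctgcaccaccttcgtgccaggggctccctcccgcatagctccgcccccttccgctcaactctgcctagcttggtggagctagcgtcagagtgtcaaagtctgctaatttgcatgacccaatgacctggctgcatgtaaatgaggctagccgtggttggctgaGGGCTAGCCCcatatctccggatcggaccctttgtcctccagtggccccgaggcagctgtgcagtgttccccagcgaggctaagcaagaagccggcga
Mdm2: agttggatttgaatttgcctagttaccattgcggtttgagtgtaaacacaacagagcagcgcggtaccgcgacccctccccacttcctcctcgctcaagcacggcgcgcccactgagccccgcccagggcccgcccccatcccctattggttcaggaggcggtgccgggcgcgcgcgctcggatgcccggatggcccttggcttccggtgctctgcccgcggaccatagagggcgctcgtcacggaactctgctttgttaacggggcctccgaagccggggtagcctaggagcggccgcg
The table matched 8 of the 9 genes, that is 7 of the measured genes and Btg2, but not Zmat3. A half-site was found in 3 of these promoters, those of Ccng1 (beginning 232 bases before the start used), Gadd45a (48 bases) and Sesn1 (172 bases, from a start 71801 bases inside the annotated gene). Among all 27457 promoters of the same length 7.89% held one. The cyclic AMP response element TGACGTCA, searched on both strands, was present in 2 of the 8 promoters, those of Plk2 and Btg2, against 1.91% of all promoters. A match is a run of letters and does not show that p53 binds there. A window with no match does not show that the gene lacks a p53 site. Bases outside the window were not searched, and only exact matches to the consensus were counted.

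The p53 targets did not move in 1 direction in Tumor cells. Ccng1, Zmat3, Plk3 and Plk2 were higher. Gadd45a, 2 of the 3 probe sets of Mdm2 and 1 of the 2 of Sesn1 were lower, and Phlda3 did not pass the test. Of the 11 probe sets, 0 were called higher (5.51% of all probe sets) and 1 was called lower (6.39% of all). When only the adjusted p was asked for, at any fold, 4 probe sets were higher (16.3% of all) and 4 were lower (15.6% of all), and 3 did not pass. Those 8 probe sets are 72.7% of the 11. The 3 Tumor arrays lay wholly on 1 side of the 3 A16 arrays for 9 of the 11 probe sets (81.8%), against 52.6% of all probe sets. The median difference of the 11 probe sets was -0.20, beside 0.03 over all probe sets.

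**Figure D1:**
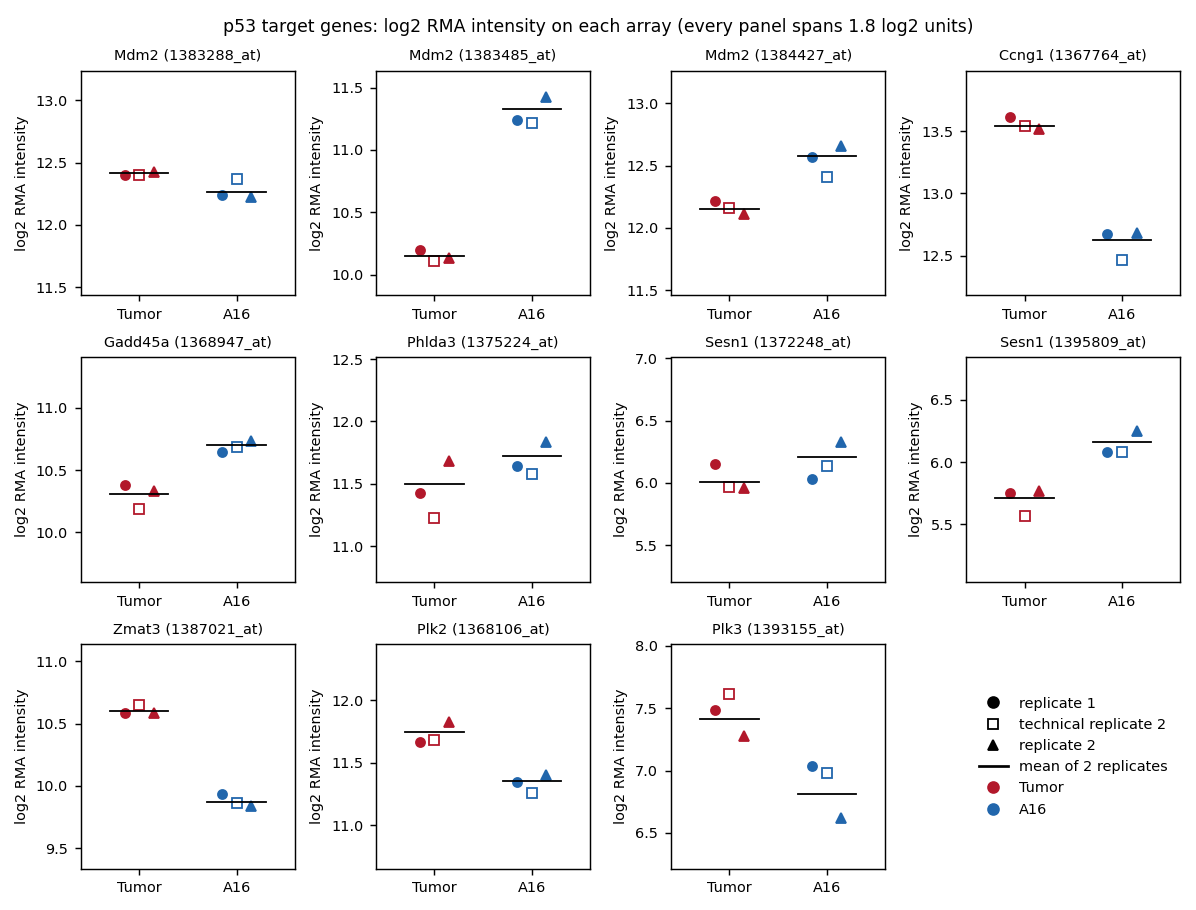
log2 RMA intensity (vertical axis) of each of the 11 probe sets on the 3 Tumor and 3 A16 arrays, where symbols mark the replicate and the line is the mean of the 2 replicates of a group. Each panel spans the same number of log2 units, so the gap between groups can be compared between panels but levels cannot. The groups overlap only for Phlda3 and for the Sesn1 probe set 1372248_at.

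Mdm2, the ubiquitin ligase that binds p53, was measured by 3 probe sets, and their results differed. Probe set 1383485_at read 10.20, 10.11 and 10.14 on the Tumor arrays (replicate 1, technical replicate 2 and replicate 2, the order used throughout), against 11.24, 11.21 and 11.42 on the A16 arrays. Every Tumor array was thus about 1 log2 unit below every A16 array. The means were 10.15 in Tumor and 11.33 in A16, a difference of -1.18 ± 0.12 (SE, n = 2 each) or 2.27-fold lower, with an adjusted p of 0.00072, and this was the only member probe set that was called. Probe set 1384427_at, the brightest of the 3, read 12.22, 12.16 and 12.11 in Tumor and 12.57, 12.41 and 12.66 in A16. Its groups did not overlap either, but the difference was smaller, -0.42 ± 0.12 or 1.34-fold lower (adjusted p = 0.0359). Probe set 1383288_at went the other way with 12.40, 12.40 and 12.43 in Tumor and 12.24, 12.36 and 12.22 in A16. This is a gap of 0.15 ± 0.11 (95% interval -0.11 to 0.42), and it did not pass the test (adjusted p = 0.352). Which part of the Mdm2 transcript each probe set reads was not analysed here, and with a larger 3′ excess in Tumor the part of RNA quality in this disagreement was not tested. With PLIER, a second way of combining probes, the differences were -1.17, -0.39 and 0.15 in the same order, and only the first passed (adjusted p = 0.00178, 0.0914 and 0.423).

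Ccng1 encodes cyclin G1, which is known from mouse and human cells to bring a phosphatase to Mdm2. It read 13.61, 13.54 and 13.51 in Tumor and 12.67, 12.46 and 12.68 in A16. All Tumor arrays were above all A16 arrays, and the arrays of each group lay close together. Ccng1 was 1.89-fold higher in Tumor (0.92 ± 0.11, 95% interval 0.65 to 1.19, adjusted p = 0.0015), just under the 2-fold minimum. Zmat3, a zinc finger protein that binds RNA and affects the stability of messages, read 10.58, 10.65 and 10.58 in Tumor and 9.94, 9.86 and 9.84 in A16. Again the groups were well apart. Zmat3 was 1.66-fold higher (0.73 ± 0.11, adjusted p = 0.00318). Ccng1, Zmat3 and Mdm2 1383485_at passed the adjusted p in all 14 alternative fits with limma, where Ccng1 ranged from 0.86 to 1.02 and Zmat3 from 0.69 to 0.78. Quantile normalization carried Ccng1 past the 2-fold minimum, so that 1 member was then called higher.

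Plk2 and Plk3 are polo-like kinases that were first known as genes induced by serum or growth factors and that p53 also induces. Plk2 read 11.67, 11.68 and 11.82 in Tumor, against 11.34, 11.26 and 11.40 in A16. The lowest Tumor array was above the highest A16 array, and the fold was 1.32 (0.40 ± 0.12, adjusted p = 0.0439). Plk3 read 7.48, 7.61 and 7.28 in Tumor, against 7.03, 6.98 and 6.62 in A16. Replicate 2 was the lowest array of both groups, and the groups did not overlap. Plk3 was 1.52-fold higher (0.60 ± 0.17, 95% interval 0.19 to 1.01, adjusted p = 0.0384). Each of these genes passed the adjusted p in 9 of the 14 alternatives, and in only 1 of the 4 fits that left out a replicate. Such a fit has 1 replicate in a group, takes its spread from the other group and assumes that the lone replicate varies alike. Without Tumor replicate 2 the difference of Plk2 was 0.32 (adjusted p = 0.256), and without Tumor replicate 1 that of Plk3 was 0.46 (adjusted p = 0.215).

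Gadd45a, a damage-induced protein that binds Pcna and the mitotic kinase Cdk1, read 10.38, 10.19 and 10.33 in Tumor and 10.64, 10.68 and 10.73 in A16. Every Tumor array was below every A16 array. Gadd45a was 1.31-fold lower (-0.39 ± 0.11, adjusted p = 0.0367), and passed in 9 of the 14 alternatives and 1 of the 4 fits that left out a replicate (-0.36 without Tumor replicate 1, adjusted p = 0.203). Phlda3, which competes with the kinase Akt for membrane lipids, read 11.42, 11.22 and 11.68 in Tumor and 11.64, 11.58 and 11.84 in A16. The highest Tumor array was above the lower A16 arrays, and the gap of -0.22 ± 0.16 (95% interval -0.61 to 0.16) did not pass (adjusted p = 0.352).

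Sesn1 is a sestrin, a stress-induced protein that restrains growth signalling through mTORC1. Both of its probe sets were dim, with each array under the median of all probe sets on the arrays, so small changes there are hard to read. Probe set 1395809_at read 5.75, 5.57 and 5.77 in Tumor and 6.08, 6.08 and 6.25 in A16. The groups did not overlap and the value was 1.37-fold lower in Tumor (-0.45 ± 0.12, adjusted p = 0.03). Probe set 1372248_at, the brighter of the pair, read 6.15, 5.97 and 5.96 in Tumor and 6.03, 6.13 and 6.33 in A16. Here the groups overlapped, and the gap of -0.20 ± 0.13 (95% interval -0.51 to 0.12) did not pass (adjusted p = 0.314). Under PLIER neither passed, with -0.44 (adjusted p = 0.067) for 1395809_at and -0.26 (adjusted p = 0.319) for 1372248_at.

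**Figure D2:**
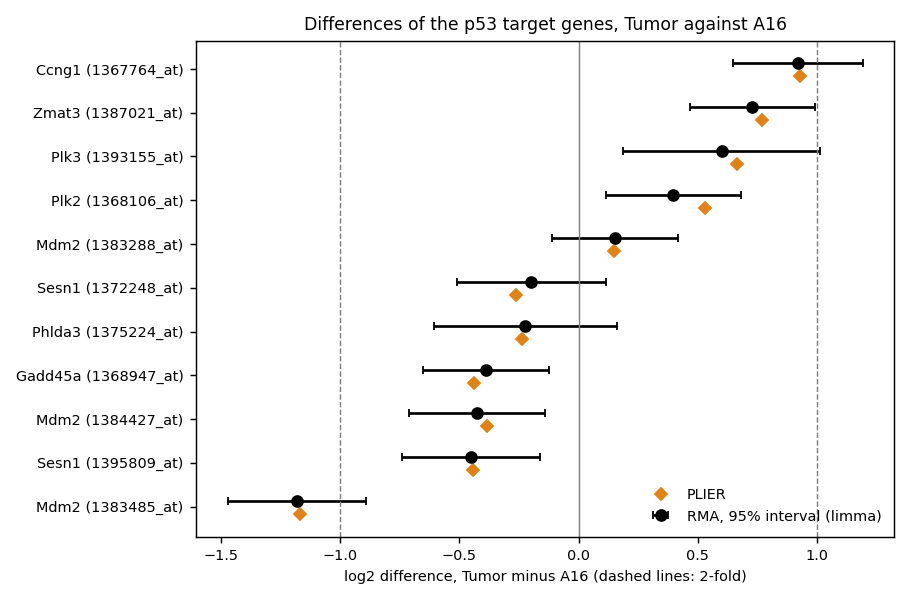
log2 difference, Tumor minus A16, of the 11 probe sets (horizontal axis), from RMA with its 95% interval in limma (black, n = 2 each) and from PLIER (orange, no interval drawn), where dashed lines mark a 2-fold difference. Only Mdm2 1383485_at lies past a dashed line, at -1.18, and Ccng1 is the largest rise, at 0.92.

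PLIER gave all 11 probe sets the same direction as RMA. The largest shift between the methods was 0.13, for Plk2, whose PLIER difference was 0.53 (adjusted p = 0.0262). PLIER also kept Ccng1 at 0.93 (adjusted p = 0.00334), Zmat3 at 0.77 (adjusted p = 0.00634), Plk3 at 0.66 (adjusted p = 0.0311) and Gadd45a at -0.44 (adjusted p = 0.0463) past the threshold. In all, 6 of the 11 passed at any fold under PLIER, against 8 under RMA.

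Counting each gene once by its brightest probe set, 0 of the 8 genes were called. The share called over all 14217 genes was 5.45% higher and 5.44% lower. At any fold, 4 of the 8 genes were higher (17.4% of all genes) and 2 were lower (16.6% of all genes), and the median was 0.10 beside 0.03 over all genes. The 8 genes lie on 7 chromosomes, and on each of these the median difference of all measured genes was between -0.06 and 0.07. Ccng1 stood at percentile 96.3 of the 1213 genes on chromosome 10, and Plk3 at percentile 90.1 of the 913 genes on chromosome 5. Zmat3 and Plk2, both on chromosome 2, stood at percentiles 88.3 and 78.1 of its 930 genes. Gadd45a stood at percentile 15.3 of the 871 genes on chromosome 4. Phlda3 stood at percentile 20.0 of the 426 genes on chromosome 13. Mdm2, by 1384427_at, stood at percentile 24.8 of the 894 genes on chromosome 7, and Sesn1 at percentile 38.3 of the 399 genes on chromosome 20. For Mdm2 the choice of the brightest probe set was narrow. In mean level 1384427_at stood at percentile 98.60 of all probe sets and 1383288_at at 98.56. With 1383288_at, at 0.15, Mdm2 would not count among the genes lower at any fold. The paper reports more aneuploidy in tumour derived cells. These carried a translocation between copies of chromosome 2, which holds Zmat3 and Plk2. They carried another between copies of a chromosome that holds none of the 8 genes. In the paper's karyotypes, some tumour derived cells also gained or lost copies of chromosomes 4, 7, 13 and 20. Some had material added to chromosome 5. These chromosomes hold Gadd45a, Mdm2, Phlda3, Sesn1 and Plk3. Gene copy number was not analysed here, and its part in the differences was not tested.

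The paralogs of these genes, which have related proteins, were set beside them. All 21 listed paralogs were measured, of which 3 were called higher (5.45% of all genes) and 1 lower (5.44% of all genes). At any fold 6 were higher (17.4% of all genes) and 4 lower (16.6% of all genes), with a median of 0.12. In the family of cyclins G and I all 3 genes were higher by their brightest probe set. Ccng2, an atypical cyclin of arrested cells, was 2.34-fold higher (1.23 ± 0.12, adjusted p = 0.0006) and Ccni was higher by 0.90 ± 0.14 (adjusted p = 0.0033). A second probe set of Ccni was at -0.23 ± 0.16 and did not pass (adjusted p = 0.35). In the Gadd45 family Gadd45b, a sensor of stress and cytokine signals, averaged 9.42 in Tumor and 10.69 in A16 and was 2.41-fold lower (-1.27 ± 0.11, adjusted p = 0.000363), while Gadd45g was at -0.43 ± 0.14 (adjusted p = 0.0564). In the Btg family of antiproliferative proteins Btg3 averaged 12.69 in Tumor and 11.26 in A16 and was 2.71-fold higher (1.44 ± 0.12, adjusted p = 0.000362). Btg1 was also higher (0.72 ± 0.11, adjusted p = 0.00394), while Tob2 of the same family was 1.70-fold lower (-0.76 ± 0.16, adjusted p = 0.0125).

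Zmat1 was 2.39-fold higher (1.26 ± 0.13, adjusted p = 0.000668), in the direction of Zmat3. Among the polo-like kinases Plk1, which drives mitosis, was lower (-0.72 ± 0.11, adjusted p = 0.0034), opposite to Plk2 and Plk3. Among the sestrins Sesn3 was lower (-0.68 ± 0.12, adjusted p = 0.00699), although its second, dimmer probe set stood at 0.01, and Sesn2 was at 0.12 ± 0.17 (adjusted p = 0.657). Mdm4, the partner of Mdm2, was at -0.28 ± 0.12 (adjusted p = 0.15). Phlda1 read 8.49, 8.41 and 8.35 in Tumor, against 9.07, 8.96 and 10.76 in A16. Its difference of -1.49 ± 0.50 did not pass (adjusted p = 0.0664) and was -0.61 without A16 replicate 2. Among the paralogs, those not called were named after their values were seen.

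**Figure D3:**
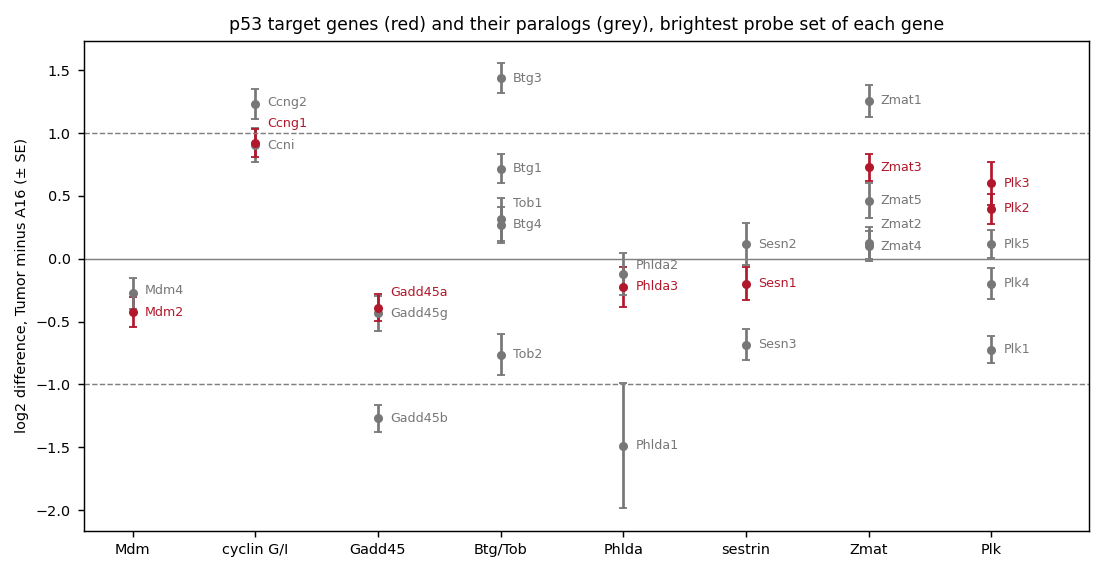
log2 difference, Tumor minus A16, of the 8 p53 targets (red) and of their 21 paralogs (grey), grouped by family, each by its brightest probe set with the SE in limma (n = 2 each), where dashed lines mark a 2-fold difference. Cyclin G and I members all lie above 0 and Gadd45 members all below 0, while the polo-like kinases lie on both sides.

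The wider p53 pathway was read from 6 lists with 66 genes, of which 53 were measured. Of these 5 were called higher (5.45% of all genes) and 4 lower (5.44% of all genes). At any fold 14 were higher (17.4% of all genes) and 13 lower (16.6% of all genes), and the median was -0.01. The same shares of all genes stand beside each list below. Among p53 regulators 14 of 17 were measured, with 1 called higher and 1 called lower. Ppm1d, the phosphatase Wip1 that removes activating phosphates from p53 and is also its target, read 10.38, 10.50 and 10.29 in Tumor, against 8.67, 8.81 and 8.37 in A16. It stood well above A16 on each array, 3.51-fold higher (1.81 ± 0.15, adjusted p = 0.000368). Chek2, a kinase that activates p53 after DNA breaks, read 7.49, 7.11 and 7.60 in Tumor and 8.45, 8.29 and 8.60 in A16. It was 2.05-fold lower (-1.03 ± 0.15, adjusted p = 0.00294). With technical replicate 2 left out (-0.98) or quantile normalization (-0.96) Chek2 still passed the adjusted p but was under the 2-fold minimum.

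All 9 targets of growth arrest were measured, of which 2 were called higher and 2 lower. Cdkn1a, the inhibitor p21 through which p53 stops the cell cycle, read 8.93, 8.93 and 9.29 in Tumor, against 10.46, 10.68 and 11.04 in A16. The groups were more than 1 log2 unit apart, and Cdkn1a was 3.24-fold lower (-1.70 ± 0.20, adjusted p = 0.00122). Its other probe set gave 7.11 in Tumor and 9.85 in A16, also lower (-2.74 ± 0.38, adjusted p = 0.00248). Pml, which organises nuclear bodies, averaged 8.73 in Tumor and 9.82 in A16 and was 2.14-fold lower (-1.10 ± 0.11, adjusted p = 0.00065). Dusp5, a nuclear phosphatase of ERK, read 11.10, 11.13 and 11.36 in Tumor, against 8.91, 8.92 and 9.14 in A16. It was 4.63-fold higher (2.21 ± 0.14, adjusted p = 0.00012), and Ccng2, given above, was the other gene called higher.

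Among targets of apoptosis 11 of 14 were measured, with 1 called higher, 0 called lower and a median of 0.32. Pidd1, a death domain protein that activates caspase-2, read 9.99, 9.95 and 9.82 in Tumor, against 8.35, 8.46 and 8.09 in A16, and was 3.13-fold higher (1.65 ± 0.14, adjusted p = 0.000411). At any fold 3 genes of this list were higher and 1 was lower, by their brightest probe sets. Among 7 further probe sets 0 passed higher and 1 lower, that of Bid (-0.94 ± 0.12, adjusted p = 0.00189). A second probe set of Apaf1 was at -0.66 ± 0.26 and did not pass (adjusted p = 0.0997), against 0.63 in its brightest. Both further probe sets were named after their values were seen. Among targets of DNA repair 7 of 9 were measured and 0 were called, with 1 higher and 3 lower at any fold. Among targets of metabolism and stress 7 of 9 were measured. Only Gls2, a mitochondrial glutaminase, was called there, averaging 9.10 in Tumor and 10.32 in A16 (2.33-fold lower, -1.22 ± 0.13, adjusted p = 0.000907).

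Among secreted and surface targets 5 of 8 were measured, with 1 called higher and 0 lower. Ackr3, a scavenger receptor for the chemokine Cxcl12, read 10.31, 10.23 and 10.01 in Tumor, against 5.21, 4.63 and 5.17 in A16. The A16 arrays were all below the array median for this probe set, so the 34.2-fold difference (5.10 ± 0.15, adjusted p = 1.19e-05) rests on a dim A16 value. Directions differed within the pathway, with the p53 inhibitor Ppm1d and the cell cycle inhibitor Cdkn1a called on opposite sides.

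**Figure D4:**
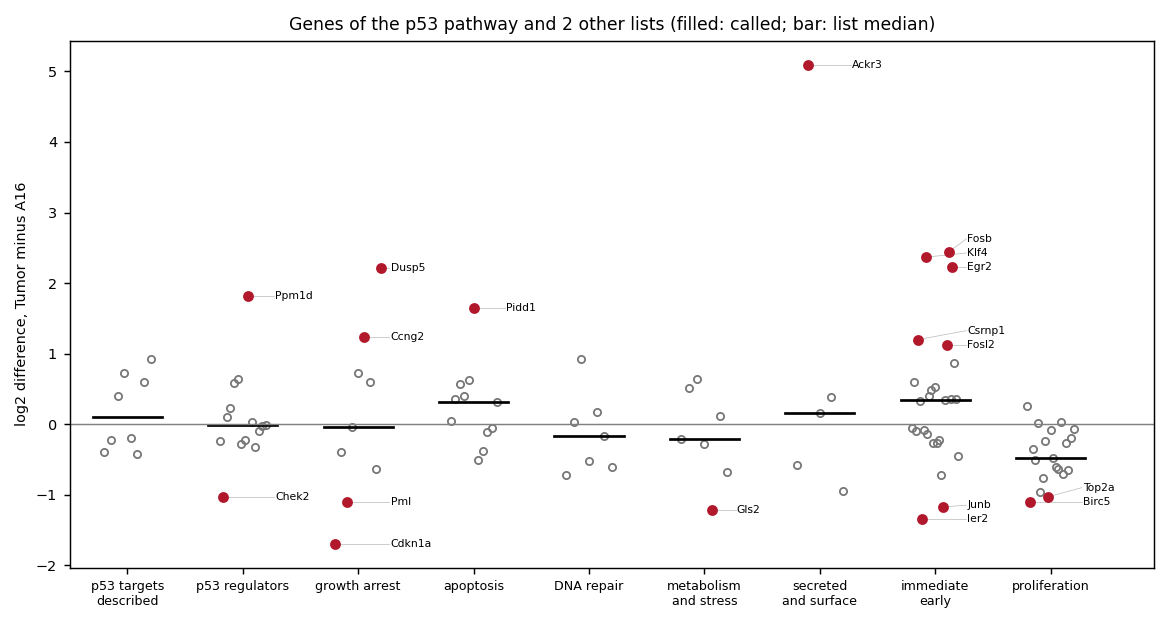
log2 difference, Tumor minus A16 (vertical axis), of each measured gene of the p53 targets described here, of the 6 wider p53 lists and of immediate early and proliferation genes, by brightest probe set, where filled points were called and the bar is the median of the list. The medians of the 6 wider lists lie between -0.20 and 0.32, and Ackr3 (5.10) and Cdkn1a (-1.70) are the highest and lowest of their genes.

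Because Plk2 and Plk3 are also known as serum-induced genes and serum may have differed, 25 immediate early genes of the serum response were read in the same fit. Of these, 5 were called higher (5.45% of all genes) and 2 lower (5.44% of all genes). At any fold 9 were higher (17.4% of all genes) and 2 lower (16.6% of all genes), and the median was 0.34. These counts take the brightest probe set of each gene, and among 18 further probe sets of the same genes 0 were called higher and 5 lower, those of Dusp1 (-1.53), Ier5 (-1.57), Jun (-1.08), Klf2 (-1.29) and Srf (-1.99), which were named after their values were seen. The transcription factor genes Fosb (2.44 ± 0.14, adjusted p = 8.44e-05) and Klf4 (2.37 ± 0.17, adjusted p = 0.000191) were among those higher, and Egr2 was higher by 2.23 ± 0.13 (adjusted p = 8.64e-05) in 1 probe set while a dimmer probe set of Egr2 stood at 0.00. Ier2 (-1.35 ± 0.19, adjusted p = 0.00284) and Junb (-1.17 ± 0.23, adjusted p = 0.00933) were lower. If serum differed, it cannot be told apart from group in this design.

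Proliferation genes, by their brightest probe sets, were lower in Tumor or did not pass the test. Of 19 measured, 0 were called higher (5.45% of all genes) and 2 lower (5.44% of all genes). At any fold 0 were higher (17.4% of all genes) and 10 lower (16.6% of all genes), and the median was -0.48. Birc5, the mitotic survival gene survivin, was lower (-1.10 ± 0.12, adjusted p = 0.00106), and so was the topoisomerase gene Top2a (-1.03 ± 0.15, adjusted p = 0.00292). A dimmer probe set of Cdc20, named after its value was seen, was higher (0.51 ± 0.14, adjusted p = 0.0393). The part of growth rate in the differences of the p53 targets was not tested.

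Marker genes were read for the cells that the cultures could hold. Over all genes 5.45% were called higher and 5.44% lower, and at any fold 17.4% were higher and 16.6% lower. Of 12 fibroblast markers, 4 were called lower and 0 higher, with a mean level per array of 9.72 to 9.74 in Tumor and 10.33 to 10.46 in A16. At any fold 5 were lower and 0 higher. Those called lower were Col1a1 (-3.46 ± 0.20), Thy1 (-1.95 ± 0.11), Col1a2 (-1.39 ± 0.11) and Fn1 (-1.27 ± 0.13). Among the others, Vim and S100a4 did not pass the test. The fibroblast markers Dcn, Lum and Fap were below the array median in both groups. Of 7 macrophage and leukocyte markers 2 were called higher, Csf1r (3.14 ± 0.14) and Cd68 (1.07 ± 0.12), and 0 lower. The mean level of this list was 6.88 to 7.09 in Tumor and 6.27 to 6.45 in A16. At any fold the counts were the same. Ptprc, the marker of all leukocytes, averaged 5.06 in Tumor and 5.13 in A16, below the array median. Of 5 epithelial markers 1 was called higher, Krt8, with a mean level of 6.09 to 6.18 in Tumor and 5.63 to 5.80 in A16. At any fold 2 of these were higher and 0 lower. The 4 endothelial markers averaged below the array median over all arrays, with 0 called, 2 higher at any fold and a mean level of 5.56 to 5.83 in Tumor and 5.36 to 5.52 in A16. In such bulk RNA, fewer cells of a type and less RNA per cell cannot be told apart, and the part of other cells in the differences above was not tested.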

How the data were processed

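Affymetrix arrays measured RNA of Tumor and A16 cells. The methods state that background was adjusted in the scanner's own software and that Avadis was used to normalize. The values the authors deposited are probe set intensity on a linear scale, by RMA and by PLIER, in 12 records of 6 arrays. Detection calls were not used, and the version of either algorithm is not given in the sources. log2 of the deposited intensity was taken. The lowest PLIER value was 16.0, so no offset was added.

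Of 31099 probe sets 57 controls were left out. The platform annotation gave 1 gene symbol to 20826 of the others, several to 436 and none to 9780, and a gene was its brightest probe set (14217 genes). Technical replicate 2 was averaged with replicate 1, which alone also carries a technical number. Tumor was compared with A16 in limma 3.58.1 (R 4.3.3) with lmFit and eBayes, using two-sided p-values adjusted by Benjamini-Hochberg over the 31042 probe sets tested. The number of arrays limits the precision. The fit was tested on simulated data. The members, lists and tests were chosen with earlier results of these data known. Every probe set of a member was named, and up to 6 called genes of each wider list by size of difference, and Cdkn1a whatever its value. Replicate numbers were not used as pairs, as the labels do not tie them to a shared batch. Alternatives changed the summary method, the place of technical replicate 2, normalization, filter, variance model, test and replicates.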

Additional observations from a re-analysis of the deposited data

Results flagged for a closer look

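The hybridisation spikes, control transcripts added after labelling, were higher in Tumor by 1.01 log2 units, with 11.12 to 11.40 on the Tumor arrays and 10.06 to 10.43 on the A16 arrays, and were singled out because they lie outside the gene measurements and stood above A16 on every array. The 3′ excess of beta-actin was higher in Tumor by 1.64 log2 units, with 2.25 to 2.37 on the Tumor arrays and 0.64 to 0.71 on the A16 arrays, and was singled out for the same reason.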

How the results depend on the processing

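All 11 member probe sets kept their direction in each of the 14 alternatives with limma, and 3 of them (Mdm2 1383485_at, Ccng1 and Zmat3) passed the adjusted p in all 14. The count of members lower at any fold was 2 with PLIER and 1 with PLIER less its lowest value plus 1, which gave 2 members higher at any fold and 7 wider genes called lower. Leaving technical replicate 2 out gave 2 members higher and 2 lower at any fold. Quantile normalization called 1 member higher. The methods' t-test called 1 member lower at an unadjusted p, with 3 higher and 4 lower at any fold, but after Benjamini-Hochberg it gave 0 in every count of members and wider genes, with 12 calls among all probe sets, against 3694 in limma. Leaving out each replicate in turn, members called were 0 higher and 1 lower throughout, members at any fold 2 to 3 higher and 1 to 4 lower, wider genes called 5 to 6 higher and 3 to 5 lower, and wider genes at any fold 7 to 16 higher and 6 to 14 lower. With the replicate block, the counts were 0 higher and 1 lower for members called, 4 and 4 at any fold, and 5 and 4 for wider genes called, and 16 and 13 at any fold. The correlation of same-numbered replicates was 0.12, and with 2 numbers that the labels do not tie to a batch they were not taken as pairs. For single genes named, 439 values under an alternative kept their direction and side of the p threshold, whatever their fold. Another 57 kept the direction but no longer passed. In some alternatives Chek2 and Top2a passed on p but fell under the 2-fold minimum. Differences near the floor of the array understate a change.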
